A study of Mus musculus with 2 samples.

Results

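The 4 Id genes (Id1, Id2, Id3 and Id4) and 3 receptors for bone morphogenetic proteins (BMPs; Bmpr1a, Bmpr1b and Bmpr2) were followed in single Sox1-GFP+ cells of mouse tail and brain. These 7 genes were taken by name from the 19392 genes with a molecule in the kept cells of either library, and all 7 had molecules in both. The cells carried a Sox1-GFP reporter, a fluorescent protein placed at the Sox1 locus that marks neural progenitors, and were sorted by flow cytometry after trypsin dissociation and profiled on BD Rhapsody cartridges. The tail came from postnatal mice and the brain from adult mice, both with the Sox1-GFP+ genotype and no other allele or agent, and the number and sex of the animals were not stated. With 1 library per tissue there was no replicate, and tissue, age and library cannot be told apart. Intervals below are 95% intervals that cover counting error only, and no p-value is given.

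BMP ligands bind a pair of receptor types on the cell surface. Type I receptors, among them those encoded by Bmpr1a and Bmpr1b, are activated by type II receptors such as Bmpr2. The activated type I receptors phosphorylate the signal carriers Smad1, Smad5 and Smad9, which enter the nucleus with Smad4. The Id genes are among the best known targets of this route. Their products are helix-loop-helix proteins that lack a DNA-binding domain and hold E proteins (Tcf3, Tcf4 and Tcf12) away from proneural factors, and in neural tissue they are known for holding back neuronal differentiation of stem cells and astroglia.

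On GRCm38 the Id genes were short and lay apart. Id1 (ENSMUSG00000042745) spanned chr2:152736251-152737410 on the plus strand, Id2 (ENSMUSG00000020644) chr12:25093799-25097140 on the minus strand, Id3 (ENSMUSG00000007872) chr4:136143497-136145755 on the plus strand and Id4 (ENSMUSG00000021379) chr13:48261228-48266026 on the plus strand. The receptors were longer: Bmpr1a (ENSMUSG00000021796) at chr14:34410734-34503341 on the minus strand, Bmpr1b (ENSMUSG00000052430) at chr3:141837136-142169425 on the minus strand and Bmpr2 (ENSMUSG00000067336) at chr1:59763400-59879014 on the plus strand. Whether counting used strand was not given in the sources used here. The genes that overlap Id4, Bmpr1a and Bmpr2 held at most 1 tail and 10 brain molecules, those of Gm49291 at Id4.

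The start regions of the Id genes are shown because Id2 was higher in the brain library while Id3 and Id4 were higher in the tail. Each sequence is the 250 bases before the RefSeq start on GRCm38.p6, read 5′ to 3′ on the gene's strand. Capitals mark GGCGCC (the core of a BMP-type Smad site), CCAAT or its reverse ATTGG, and TATAAA or its reverse TTTATA. The Id2 and Id3 windows lie inside the gene spans given above, which come from GENCODE, so the 2 annotations place these starts differently. The Id4 window lies before its span. Id1 was not in the table of start regions.
Id2, chr12:25096093-25096342, minus strand: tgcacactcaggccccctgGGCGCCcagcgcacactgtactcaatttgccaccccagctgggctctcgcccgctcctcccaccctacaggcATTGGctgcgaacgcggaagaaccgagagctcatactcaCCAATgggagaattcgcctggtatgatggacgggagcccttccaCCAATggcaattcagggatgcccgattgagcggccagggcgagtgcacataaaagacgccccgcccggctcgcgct
Id3, chr4:136143572-136143821, plus strand: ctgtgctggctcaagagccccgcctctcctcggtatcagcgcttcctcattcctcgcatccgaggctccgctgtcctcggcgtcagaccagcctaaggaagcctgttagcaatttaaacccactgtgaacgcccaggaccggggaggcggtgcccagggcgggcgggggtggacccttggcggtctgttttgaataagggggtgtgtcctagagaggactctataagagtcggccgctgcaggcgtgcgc
Id4, chr13:48260866-48261115, plus strand: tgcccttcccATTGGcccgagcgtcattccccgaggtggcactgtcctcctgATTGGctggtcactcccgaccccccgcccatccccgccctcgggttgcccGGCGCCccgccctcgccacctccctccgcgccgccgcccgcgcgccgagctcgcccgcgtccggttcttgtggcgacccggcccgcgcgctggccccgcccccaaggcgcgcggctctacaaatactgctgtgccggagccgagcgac
The Id2 window held 1 GGCGCC and 3 CCAAT boxes, the Id4 window 1 and 2, and the Id3 window none of the letters searched. Among 32851 such windows, 9.59% held GGCGCC, 33.8% held CCAAT and 12.4% held TATAAA on either strand. A match describes letters only.

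Of 2469 tail barcodes 1964 were kept, and the median kept cell had 1282.5 molecules from 831.5 genes. Of 12111 brain barcodes 7988 were kept, at 696 molecules from 439.5 genes. The kept cells held 2817103 tail and 6424466 brain molecules. The libraries shared 29 cell barcodes, 18 of them among kept cells. Levels are in CPM, the summed molecules of a gene per 1000000 molecules of all genes, and they are not scaled to gene length. Shares of cells with a molecule were taken after thinning each cell to 400 molecules, which left out 19 tail and 718 brain cells. Sox1 itself was at 83.8 CPM in the tail and 117 in the brain. In these pooled sums, more cells with a gene and more molecules per cell cannot be told apart.

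The tail library was higher in Id1, Id3 and Id4 and the brain library in Id2 and Bmpr1b. Id1, a standard readout of BMP input, was at 88.4 CPM in the tail (249 molecules) and 24.1 in the brain (155 molecules), 3.66-fold higher in the tail (interval 2.99 to 4.51). Id2, the member with the largest share of Id molecules in the brain, was at 267 in the tail (752 molecules) and 847 in the brain (5440 molecules), 3.17-fold higher in the brain (2.94 to 3.43). Id3, which is often active beside Id1, was at 268 in the tail (756 molecules) and 141 in the brain (905 molecules), 1.91-fold higher in the tail (1.73 to 2.10). Id4, a member found in quiescent neural stem cells and astroglia, was at 701 in the tail (1976 molecules) and 478 in the brain (3072 molecules), 1.47-fold higher in the tail (1.39 to 1.55). The family therefore did not move one way between the tissues.

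The receptors differed in another order. Bmpr1b, a type I receptor with a narrower distribution than Bmpr1a, had 13 molecules in the whole tail library (4.61 CPM) and 395 in the brain (61.5 CPM), 13.3-fold higher in the brain (7.70 to 25.2). Bmpr1a, the broadly used type I receptor, was at 129 CPM in the tail (363 molecules) and 174 in the brain (1121 molecules), 1.35-fold higher in the brain (1.20 to 1.53). Bmpr2, a type II receptor, was at 70.6 in the tail (199 molecules) and 80.3 in the brain (516 molecules), and the interval of the tail over brain ratio ran from 0.743 to 1.04. Whether single cells held both receptor types was not examined.

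A gene was tested where both libraries together held 50 or more of its molecules, and called where its whole interval lay beyond 2-fold. Id1 was called for the tail and Id2 and Bmpr1b for the brain, beside 13.2% of the 11347 genes tested that were called for the tail and 9.07% for the brain. The scaling of the libraries bears on these calls. TMM factors multiplied every tail over brain ratio by 0.766 and median-ratio factors by 0.775, a shift of -0.39 and -0.37 on the log2 scale. Of all called genes, those on the tail side made 59.2% by totals, 44.4% by TMM and 45.1% by median ratio. Under TMM the ratio of Id1 was 2.80 and that of Id4 1.12, and none of the directions turned.

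**Figure D1:**
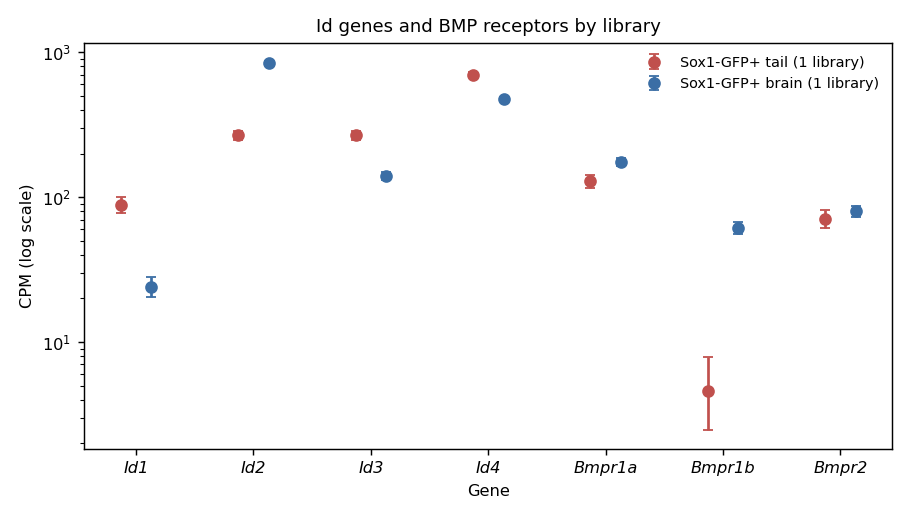
Summed CPM (log axis) of the 7 genes in the Sox1-GFP+ tail (red) and brain (blue) libraries, 1 library each, with exact Poisson 95% intervals. Id1, Id3 and Id4 sit higher in the tail, Id2 and Bmpr1b higher in the brain, and the intervals of Bmpr2 overlap.

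The shares of cells gave the same directions for the Id genes. In thinned cells Id1 was found in 3.65% of tail and 0.715% of brain cells (9.78% and 1.74% before thinning). The brain value of Id1 rested on 52 cells and moved to 1.20% with another random draw, and the share expected over all draws was 0.899%. Id2 was found in 9.15% of tail and 26.1% of brain cells (22.7% and 39.2% before thinning). For Id3 the shares were 9.67% and 5.32% (22.3% and 9.01% before thinning), and for Id4 they were 22.2% and 13.5% (44.0% and 21.6% before thinning).

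Receptor molecules were sparse in single cells. Bmpr1a was found in 4.37% of thinned tail and 6.48% of thinned brain cells (15.1% and 12.1% before thinning, where the order turns with depth). The shares of Bmpr1b were 0.257% and 2.64% (0.662% and 4.62% before thinning), and those of Bmpr2 2.47% and 2.92% (8.86% and 6.01% before thinning). No cell held more than 4 molecules of a receptor, whereas the highest count in 1 cell was 19 for Id4 in the brain.

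Shares were set beside cells of types outside the neural lineage to show the level of loose RNA. In 81 tail cells with 2 or more molecules of the keratinocyte gene Krt5 (median 2111 molecules), the thinned shares were 0% for Id1 and Id2, 2.47% for Id4, 6.17% for Bmpr1a and 11.1% for Id3. Id3 and Bmpr1a in keratinocytes were thus no lower than in the tail library as a whole, so this comparison gives no background for them. In 41 brain cells with the macrophage gene Ctss (median 633 molecules), the thinned shares were 0% for Id1, Id3, Bmpr1b and Bmpr2, 2.44% for Id4 and for Bmpr1a, and 14.6% for Id2 (5.57% to 29.2%). The Id2 share in those 41 cells was above the 3.28% of Dlx1-marked cells described below, so Id2 molecules were not spread evenly over brain cells.

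Cells were then grouped by 7 marker genes, a cell being marked where it had 2 or more molecules. Marked tail cells numbered 408 for Slc1a3 (a glutamate transporter of astroglia and radial glia), 103 for Top2a (a topoisomerase of cycling cells), 1260 for Igfbp5 (an insulin-like growth factor binding protein), 37 for Tmem212 (a gene of multiciliated ependyma), 177 for Col1a1 (a fibroblast collagen), 69 for Pkd2l1 (a channel of neurons that contact cerebrospinal fluid) and 1 for Dlx1 (a factor of forebrain inhibitory neuroblasts), and 481 had none. Marked brain cells numbered 4891 for Slc1a3, 198 for Top2a, 940 for Dlx1, 419 for Igfbp5, 53 for Tmem212, 36 for Col1a1 and 0 for Pkd2l1, and 1974 had none. Sets overlapped: 94.9% of tail Slc1a3-marked cells were also marked by Igfbp5, and 63.6% of brain Top2a-marked cells by Dlx1. In the 10 sets of at least 50 cells, all other genes of the matching marker list were higher in the marked than in the other cells, except Agt. This astroglial gene had no molecule in the tail Slc1a3-marked cells, whose other astroglial genes summed to 542 CPM against 14355 in the brain Slc1a3-marked cells. The 4 keratinocyte genes summed to 565 CPM in tail Slc1a3-marked cells against 1405 in the other tail cells, and to 2309 in tail Top2a-marked cells against 1119. The 4 fibroblast genes summed to 251 CPM in tail Slc1a3-marked, 4178 in Igfbp5-marked and 10305 in Top2a-marked cells, the last against 4925 in the other tail cells, with all 4 genes higher. The part of these genes in the values below was not tested. The tail Slc1a3-marked cells are therefore named by their marker and not as astrocytes.

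**Figure D2:**
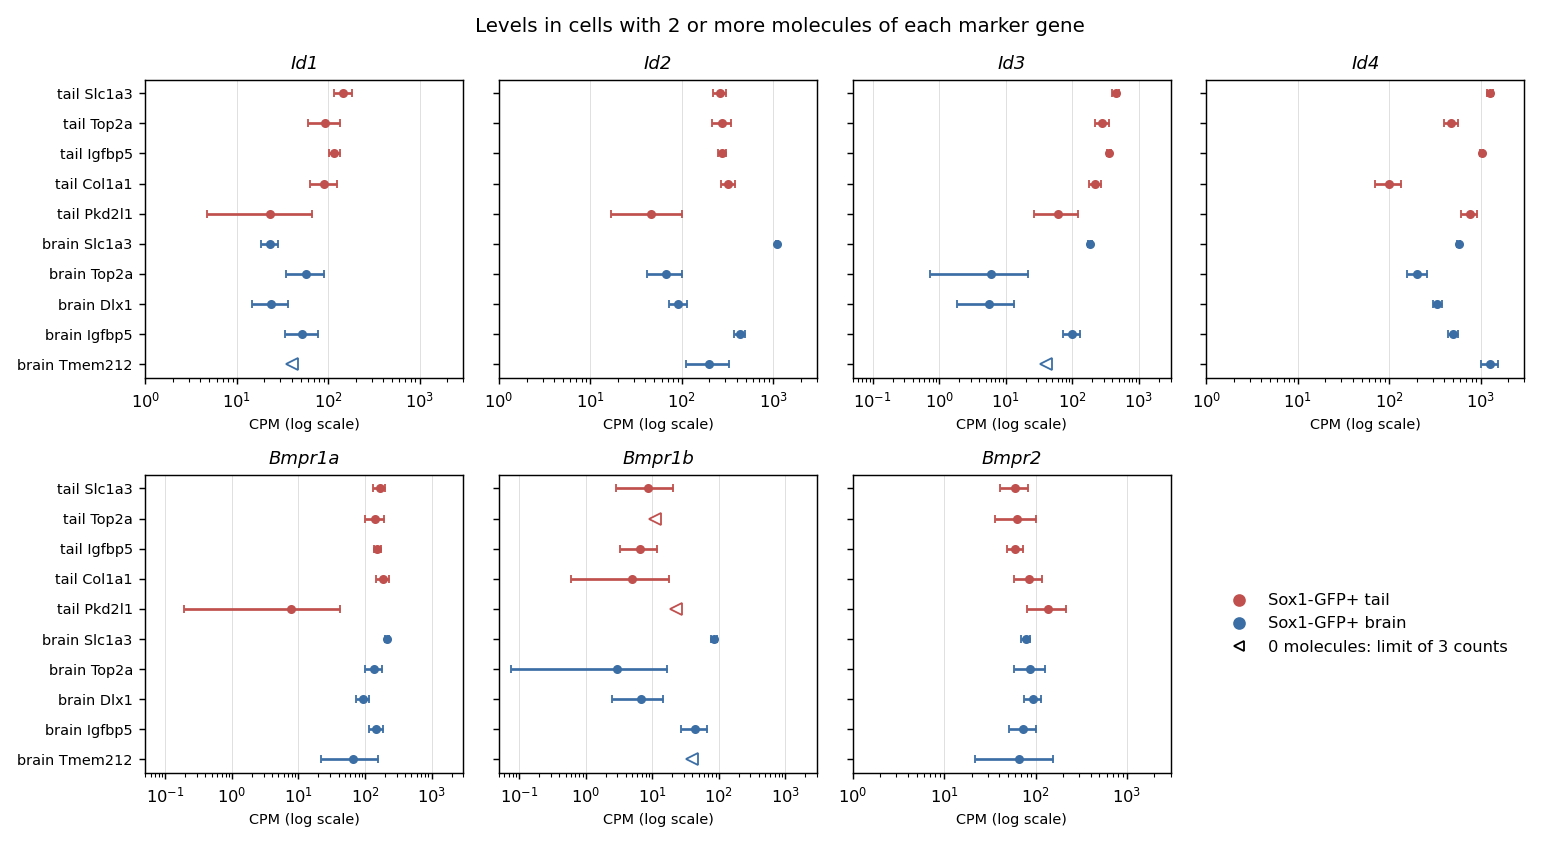
CPM (log axes) of each gene in the 10 sets of at least 50 cells, tail in red and brain in blue, with exact Poisson 95% intervals. Open triangles give the limit that 3 counts would reach where a set had 0 molecules. Id2 and Id3 are low in brain Top2a- and Dlx1-marked cells, and Id4 is highest in tail Slc1a3- and brain Tmem212-marked cells.

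Id1 was highest in tail Slc1a3- and Igfbp5-marked cells. It was at 146 CPM in tail Slc1a3-marked cells (117 to 181) and at 117 in tail Igfbp5-marked cells (101 to 135). Tail Top2a- and Col1a1-marked cells followed at 92.1 and 89.2, and neighbours in this order had overlapping intervals. Brain Slc1a3-marked cells were at 22.8 (18.5 to 27.9), Igfbp5-marked cells at 52.1 (33.7 to 77.0) and Top2a-marked cells at 57.3 (34.5 to 89.5). Within the brain the summed level of Id1 was 2.57-fold higher in the Top2a-marked than in the other cells, from 19 molecules (interval up to 4.17), and 2.38-fold higher in the Igfbp5-marked cells (interval up to 3.68). After thinning, 0 of 197 brain Top2a-marked cells held an Id1 molecule (interval up to 1.86%, 7.58% before thinning). In the same draw the share over all brain cells was 0.715%. The interval includes that share and values well above it, so the thinned shares cannot decide this order.

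Id2 had its highest level in brain Slc1a3-marked cells. There it reached 1091 CPM (1060 to 1124), 2.66-fold above the other brain cells (2.48 to 2.85). Brain Dlx1-marked cells were at 91.8 and Top2a-marked cells at 66.4. The other brain cells were 10.5-fold higher than the Dlx1-marked (8.46 to 13.3) and 13.4-fold higher than the Top2a-marked cells (8.84 to 21.4). In the tail, the Slc1a3-, Igfbp5-, Top2a- and Col1a1-marked cells lay between 260 and 322 with overlapping intervals. The tail Pkd2l1-marked cells were lower, at 45.9 from 6 molecules.

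Id3 split the sets in the same way in the brain, and was higher in tail than in brain Top2a-marked cells. It was at 453 CPM in tail Slc1a3-marked cells (400 to 512), 359 in Igfbp5-marked, 280 in Top2a-marked and 221 in Col1a1-marked cells. The 29 tail cells marked by Top2a alone held 5 Id3 molecules (65.0 CPM, 21.1 to 152), against 274 CPM in the other tail cells. Brain Slc1a3-marked cells were at 185 (172 to 199). Brain Dlx1-marked cells held 5 molecules (5.67 CPM), and the other brain cells were 28.6-fold higher (12.2 to 88.5). Brain Top2a-marked cells held 2 molecules (6.03 CPM), and brain Tmem212-marked cells held 0, where 3 counts would be 39.9 CPM and the interval reaches 49.1.

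Id4 had 40 or more molecules in each of the 10 sets. It was at 1265 CPM in tail Slc1a3-marked cells (1175 to 1360) and 1264 in brain Tmem212-marked cells (1023 to 1545), the top of its order, with overlapping intervals. Tail Igfbp5-marked cells were at 1024 and tail Pkd2l1-marked cells at 757 (615 to 921). In the brain, Slc1a3-marked cells were at 576, Igfbp5-marked at 503, Dlx1-marked at 338 and Top2a-marked cells at 202. Tail Col1a1-marked cells were lowest at 99.1 (70.8 to 135), and the other tail cells were 8.09-fold higher (5.92 to 11.4). The 37 tail Tmem212-marked cells held 61 Id4 molecules (914 CPM), a ratio to the other tail cells of 1.31 whose interval includes 1 (up to 1.69), and 70.3% of them were also marked by Igfbp5. The 10 tail cells marked by Tmem212 alone were at 438 CPM.

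Among the receptors, Bmpr1a was broad with 1 gap. It ran from 92.9 CPM in brain Dlx1-marked cells to 216 in brain Slc1a3-marked cells over 8 of the 10 sets, and brain Tmem212-marked cells were at 66.5 from 5 molecules. The 69 tail Pkd2l1-marked cells held 1 Bmpr1a molecule (7.64 CPM, 0.193 to 42.6) against 135 CPM in the other tail cells. Bmpr2 reached 138 CPM in those same cells (81.5 to 217) from 18 molecules and lay between 59.2 and 92.9 in the other 9 sets. Bmpr1b was at 84.8 in brain Slc1a3-marked cells (76.1 to 94.2) and 43.8 in brain Igfbp5-marked cells, of which 41.3% were also marked by Slc1a3. It was at 6.80 or below in brain Dlx1- and Top2a-marked cells and at 8.71 or below in every tail set. Set against the other tail cells, the Pkd2l1-marked cells were thus lower in Id1 (3 molecules), Id2 (6), Id3 (8) and Bmpr1a (1), while their Id4 level was 1.08-fold that of the others (0.876 to 1.33).

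The mix of Id molecules gave each set a profile. Molecules are counts of captured transcripts and are not scaled to gene length. In the tail as a whole, Id4 made 52.9% of 3733 Id molecules, Id3 20.3%, Id2 20.1% and Id1 6.67%. In the brain, Id2 made 56.8% of 9572 Id molecules, Id4 32.1%, Id3 9.45% and Id1 1.62%. Id4 made 85.3% in tail Pkd2l1-marked (77.6% to 91.2%), 86.4% in brain Tmem212-marked (78.5% to 92.2%) and 73.6% in brain Dlx1-marked cells (69.0% to 77.8%). In tail Col1a1-marked cells, by contrast, Id4 made 13.6% and Id2 44.1% of 295 Id molecules. Brain Top2a-marked cells had the highest share of Id1, 17.3% of 110 Id molecules (10.7% to 25.7%), from 19 Id1 molecules. This interval overlaps that of tail Col1a1-marked cells, at 12.2% (8.70% to 16.5%). The summed level of the 4 Id genes was lowest in brain Top2a- (332 CPM) and Dlx1-marked cells (459), against 1875 in brain Slc1a3- and 2124 in tail Slc1a3-marked cells.

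**Figure D3:**
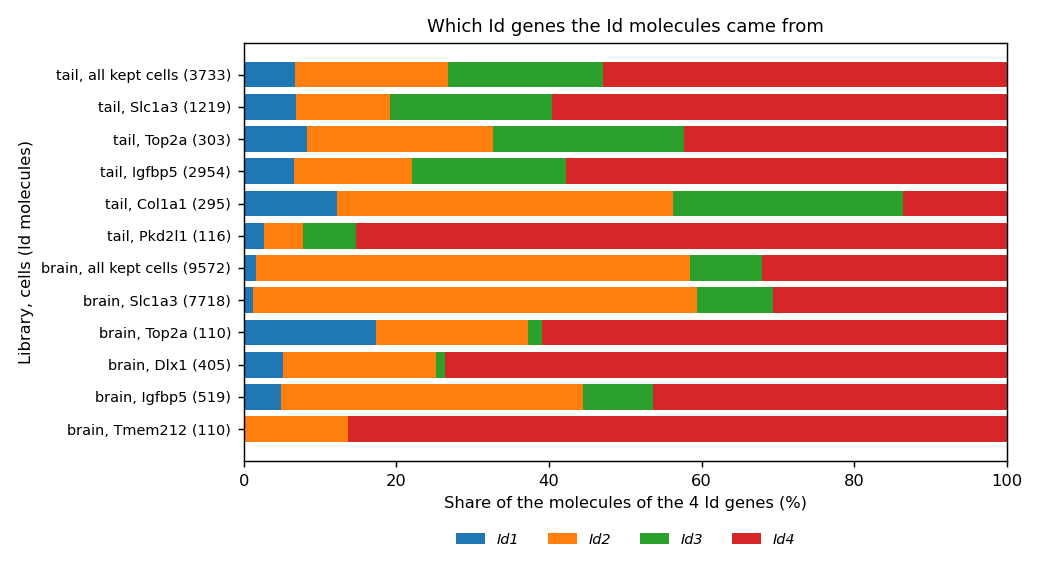
Share of the molecules of Id1 to Id4 (percent) that came from each gene, for all kept cells and for each set of at least 50 cells, with the number of Id molecules in brackets. Id4 fills most of the bar in tail Pkd2l1-, brain Dlx1- and brain Tmem212-marked cells, and Id2 fills most of it in brain Slc1a3-marked cells.

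Tissues were next compared within cells that carried the same marker. In Slc1a3-marked cells Id1 was 6.41-fold (4.72 to 8.69), Id3 2.44-fold (2.11 to 2.82) and Id4 2.20-fold higher in the tail (2.02 to 2.39). Id2 was 4.20-fold (3.57 to 4.98) and Bmpr1b 9.73-fold higher in the brain (4.13 to 30.2), the latter from 5 tail molecules. Bmpr1a and Bmpr2 were not called, at tail over brain ratios of 0.766 and 0.762. Of the 7 genes, 3 were called for the tail and 2 for the brain, where 13.1% and 10.2% of 8739 genes tested were called. These 2 sets were unlike in their other markers, and the tail cells left after taking out those with a second marker numbered 14. In these 14 cells Id1 had 0 molecules (interval up to 151 CPM). Brain cells marked by Slc1a3 alone were at 19.7 CPM, so no direction was measured for Id1. Id4 had 1 molecule in the 14 cells, and its direction turned, with a tail over brain ratio of 0.0712 (interval up to 0.397).

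In Top2a-marked cells Id2, Id3 and Id4 were higher in the tail. In cells with no second marker the Id4 ratio had an interval that includes 1, so no direction was measured. Id2, which was higher in the brain among Slc1a3-marked cells, was at 273 CPM in the tail and 66.4 in the brain, 4.11-fold higher in the tail (2.52 to 6.95). Id3 was at 280 and 6.03, 46.4-fold higher in the tail (12.4 to 390), with only 2 brain molecules. Id4 was at 471 and 202, 2.33-fold higher in the tail (1.72 to 3.18). Bmpr1a was at 140 and 136, a ratio of 1.03 (0.652 to 1.62). Tail Top2a-marked cells were marked by Igfbp5 in 57.3% and by Col1a1 in 19.4% of cases, and brain ones by Dlx1 in 63.6%. The 29 tail Top2a-marked cells without a second marker were at 65.0 CPM for Id3 and 143 for Id4. The 43 such brain cells were at 253 for Id4, a tail over brain ratio of 0.566 (0.235 to 1.32). In Igfbp5-marked cells, Id3 was 3.66-fold higher in the tail (2.72 to 5.03), Id1 2.25-fold and Id4 2.04-fold, and Id2 was 1.57-fold higher in the brain (1.32 to 1.85). The brain Igfbp5-marked cells were also marked by Slc1a3 in 41.3% and by Dlx1 in 28.4% of cases. In cells marked by Igfbp5 alone, Id2 was at 267 CPM in the tail and 181 in the brain. The tail over brain ratio of 1.48 has an interval that includes 1 (0.934 to 2.46), so no direction was measured.

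Slc1a3 itself gave a scale within the brain. In cells thinned to 400 molecules, Id2 was found in 11.9% of 2504 cells with no Slc1a3 molecule and in 34.8% of 1005 cells with 1. The Id2 share was 34.2% at 5 to 9 molecules and 18.0% in the 289 cells with 10 or more (13.7% to 22.9%). Id4 took another course, from 11.5% at 0 and 8.26% at 1 molecule through 18.0% at 5 to 9 to 37.7% at 10 or more (32.1% to 43.6%). At 10 or more Slc1a3 molecules, the Id4 interval lay above and the Id2 interval below those at 5 to 9. Bmpr1a went from 3.43% at 0 to 11.4% at 10 or more (7.99% to 15.7%), while the Bmpr2 shares stayed between 1.73% and 3.43% with overlapping intervals. In the tail, where 95 thinned cells had 2 to 4 Slc1a3 molecules and 1 had more, Id4 was found in 18.4% of cells with 0, 35.4% with 1 and 38.9% with 2 to 4, and Id3 in 7.92%, 15.6% and 18.9%.

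**Figure D4:**
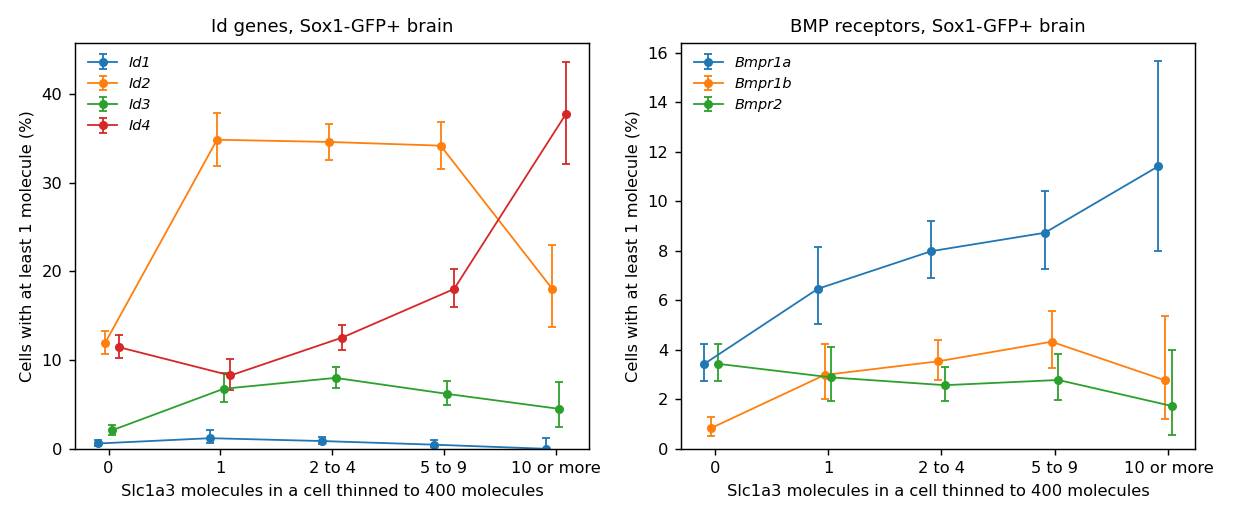
Share of thinned Sox1-GFP+ brain cells with at least 1 molecule of each gene (percent) by the number of Slc1a3 molecules in the cell, with exact Clopper-Pearson 95% intervals. Id4 is at 37.7% in cells with 10 or more Slc1a3 molecules, where Id2 is at 18.0% against 34.2% at 5 to 9.

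Id genes were found together in the same cell to different degrees. Among thinned tail Igfbp5-marked cells, Id3 was found in 28.8% of 59 cells with Id1 (17.8% to 42.1%) and in 11.5% of 1192 without (9.74% to 13.4%). Id4 was found in 44.2% of 154 cells with Id3 (36.2% to 52.4%) and in 28.1% of 1097 without (25.4% to 30.8%). Among thinned brain Slc1a3-marked cells, Id3 was found in 27.3% of 33 cells with Id1 (13.3% to 45.5%) and in 6.90% of 4568 without (6.18% to 7.67%). Id2 was found in 42.9% of 324 cells with Id3 (37.4% to 48.5%) and in 32.9% of 4277 without (31.5% to 34.3%). Id2 and Id4 went the other way in the brain: Id2 was found in 28.4% of 693 cells with Id4 (25.1% to 31.9%) and in 34.5% of 3908 without (33.0% to 36.0%). In the tail Igfbp5-marked cells Id2 was found in 49 of 376 cells with Id4 (9.80% to 16.9%) and in 7.66% of those without (5.98% to 9.62%). Cells of 1 library are not replicates of a condition, so these shares describe the libraries.

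Other genes of the route, and genes linked to it such as related receptors and the E proteins, were taken from 7 fixed lists. Of their 54 genes, 40 had the 50 molecules needed. Of these, 14 were called for the tail and 2 for the brain, beside 13.2% and 9.07% of all genes tested, with a median tail over brain ratio of 1.64 against 1.21 over all genes tested. Under TMM or median-ratio scaling 11 of the 16 called genes were higher in the tail. Without the cells that had 2 or more molecules of Col1a1, Tmem212, Krt5, Krt14 or Ctss, 11 of 35 were called for the tail and 3 for the brain, beside 12.5% and 8.98% of 10956 genes tested.

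Ligands and secreted antagonists were the members farthest apart. Bmp4, a main BMP ligand, had 102 tail and 5 brain molecules (36.2 and 0.778 CPM), 46.5-fold higher in the tail (19.3 to 146). Bmp2, its close relative, had 51 tail and 2 brain molecules, 58.2-fold higher in the tail (15.3 to 493). Bmp7 was the only ligand with over 50 molecules that was not called, at 37.3 and 44.2 CPM. Without the cells of other types it had 22 tail and 284 brain molecules and was called for the brain (4.43-fold, 2.87 to 7.19). Of the 9 antagonists tested, 5 were higher in the tail, 1 in the brain and 3 were not called. Of all genes tested, 13.2% were called for the tail and 9.07% for the brain. Fst, encoding follistatin, had 95 tail and 2 brain molecules (108-fold, 29.2 to 907), and Sostdc1, a secreted BMP and Wnt antagonist, 106 and 6 (40.3-fold, 17.9 to 112). Chrdl1, a chordin-like antagonist, was the gene higher in the brain, at 7.10 against 24.6 CPM from 20 and 158 molecules. Noggin (Nog) was at 23.1 and 14.3 CPM and was not called.

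The cells that held these ligands and antagonists were partly not neural. Bmp4 was at 117 CPM in tail Col1a1-marked cells and 29.4 in tail Igfbp5-marked cells, which held 47 and 49 of its molecules. Bmp2 was at 120 CPM in Krt5-marked, 52.0 in Col1a1-marked and 7.81 in Igfbp5-marked tail cells. Fst reached 339 CPM and Sostdc1 284 in Krt5-marked cells, against 15.0 and 9.61 in Igfbp5-marked cells. Without the cells of the other types named above, Bmp4 was still called, and Bmp2, Fst and Sostdc1 had fewer than the 50 molecules needed. In the brain, 152 of 158 Chrdl1 molecules were in Slc1a3-marked cells, the set where Bmpr1b was highest.

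Inside the cell, 2 feedback genes were called. Counts over all kept cells in this paragraph stand beside 13.2% of all genes tested called for the tail and 9.07% for the brain. None of the 4 signal carriers (Smad1, Smad5, Smad9 and Smad4) was called over all kept cells, and their median ratio was 1.27. Of the 8 intracellular inhibitors, 2 were called higher in the tail: Smad6 at 21.3 against 2.65 CPM (60 and 17 molecules) and Smad7 2.79-fold (2.09 to 3.72; 110 and 90 molecules). Both are also BMP targets, and with them 4 of the 7 targets tested besides the Id genes were called for the tail and 1 for the brain. Hes1, a repressor shared with the Notch route, was at 279 and 93.1 CPM, and Msx1, a homeobox target of BMP, at 42.6 and 9.34. Hey1, a repressor related to Hes1, was the target called for the brain, at 16.3 against 53.9 CPM from 46 and 346 molecules. Msx2, another target, was 3.73-fold higher in the brain (1.93 to 8.05; 10 and 85 molecules) and was not called. Of the 9 other receptors of the superfamily that were tested, Acvr2a, Tgfbr2 and Tgfbr3 were higher in the tail. Without the cells of other types, Acvr2a and Tgfbr2 (41 tail and 19 brain molecules) were still called. Tgfbr3 then had 13 tail and 11 brain molecules, too few to be tested. In Slc1a3-marked cells Acvr2a was not called, and Tgfbr2 and Tgfbr3 were not tested. The E proteins bound by Id proteins were not called over all kept cells, with Tcf4 at 632 and 1201, Tcf3 at 91.2 and 52.3 and Tcf12 at 222 and 130 CPM. Within Slc1a3-marked cells, 9 of the 28 pathway genes tested were called for the tail and 1, Chrdl1, for the brain, beside 13.1% and 10.2% of all genes tested in these cells. The 9 included the carrier Smad5 at 193 and 52.2 CPM (3.70-fold, 2.92 to 4.68) and the E protein Tcf3 at 95.8 and 32.1 CPM (2.99-fold, 2.14 to 4.12). Of 22 pathway genes tested in Igfbp5-marked cells, 4 were called for the tail (Fstl1, Hes1, Ski and Tgfbr2) and 1, Tcf4, for the brain. Smad5 and Tcf3 were tested there and not called. The share of all genes called in Igfbp5-marked cells was not taken, so these counts cannot be set against those of Slc1a3-marked cells. The brain Igfbp5-marked cells held 479444 molecules, against 4116318 in the brain Slc1a3-marked cells.

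**Figure D5:**
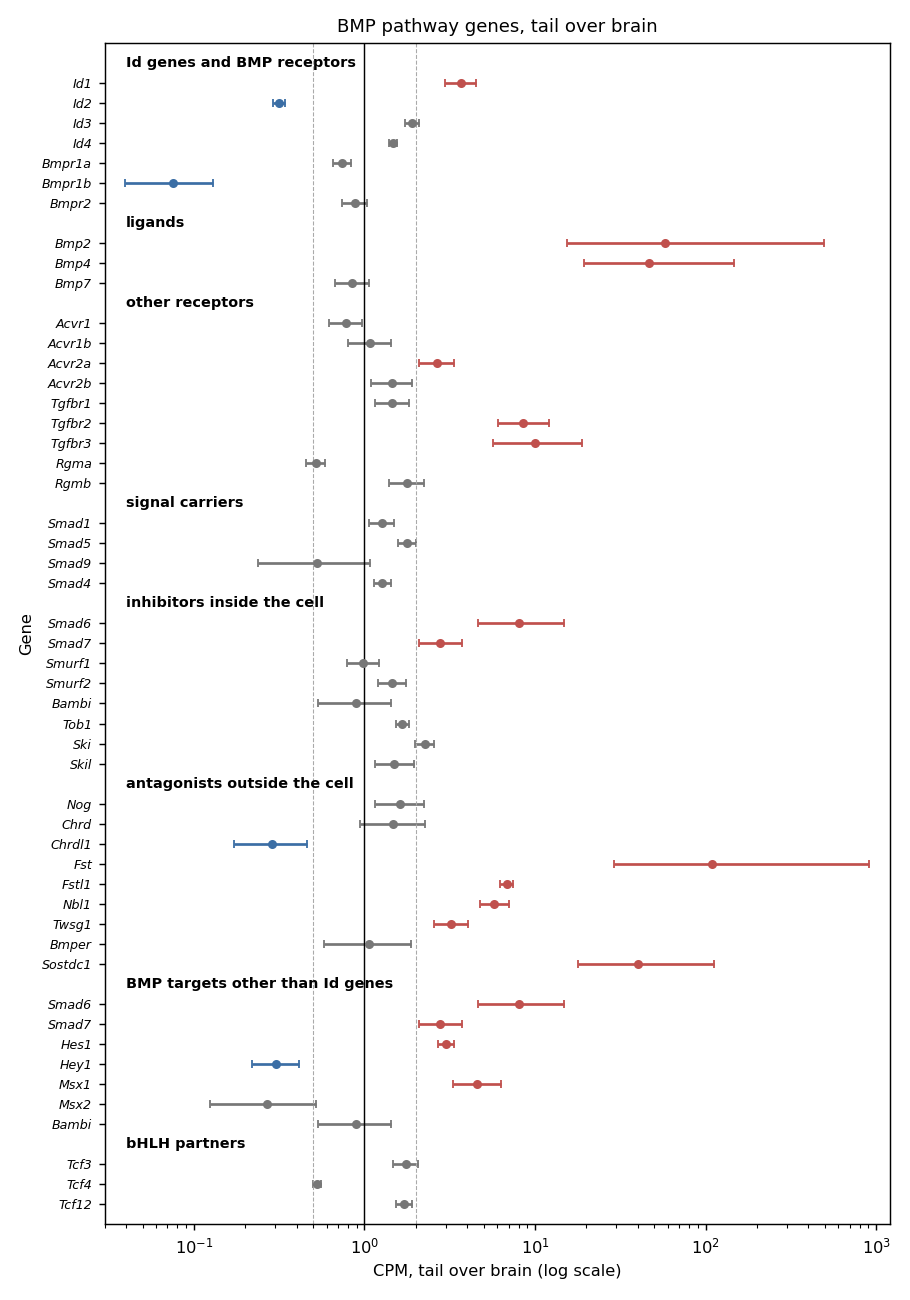
Ratio of CPM, tail over brain (log axis), with 95% intervals, for the 7 genes and the 40 pathway genes tested, by list (Smad6, Smad7 and Bambi stand in 2 lists). Red marks genes called for the tail, blue those called for the brain and grey those not called, and dashed lines mark 2-fold.

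Genes with a pattern like that of each member were sought across 8 groups of cells, those marked by exactly 1 marker or by none, with at least 50 cells in 1 library. These points share 2 libraries, so Pearson's r of log2(CPM + 20) over 7078 genes is a description. Bmpr1b was most like Dio2 (r = 0.993), Cyp2j9 (0.991) and Irak2 (0.991). Dio2, a thyroid hormone deiodinase of astrocytes, had 755 brain and 3 tail molecules. Among the genes most like Id2 were Slc16a1 (0.976), a lactate transporter, and Zmpste24 (0.969), and Id1 was most like Ifitm1 (0.966), Dap (0.966) and Aebp1 (0.961). The genes nearest Id3 were Ptprd (0.969), Kcnma1 (0.962) and Nek7 (0.962), those nearest Bmpr1a were Hdac4 (0.978), Slc31a1 (0.973) and Abhd5 (0.967), and those nearest Bmpr2 were Abhd10 (0.932), Papd5 (0.931) and Clip1 (0.929). Id4 had the least close neighbours after Psenen (0.957), with Plekhb2 at 0.914 and Fam135a at 0.911. Among the members themselves, r was 0.773 for Id2 with Bmpr1b, 0.743 for Id1 with Id3 and 0.705 for Id2 with Id3, and it lay between -0.248 and -0.117 for Id4 with the other Id genes.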

How the data were processed

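Both Sox1-GFP+ libraries were deposited as 1 table each of molecule counts per cell and gene. According to the file headers the tables came from the BD Rhapsody WTA Analysis Pipeline 1.10.1, on GRCm38. The study's methods name another version of that pipeline, as an alternative to UMI-tools 1.0.1, STAR 2.7.1a and featureCounts 1.6.4. The header was followed here. The counts used were the molecules left after the authors' pipeline corrected errors in molecular identifiers. Low depth makes rare genes absent from most cells.

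The 7 genes, the marker genes and the pathway lists were chosen with earlier results of these data known. The study's own limits on cells were applied, namely above 200 genes, below 4000 genes and below 40% of molecules from mitochondrial genes. Doublets, of which Scrublet (scanpy 1.11.5) called 5 tail and 76 brain cells, were kept. Molecules were summed per library or set. Levels carry exact Poisson intervals, ratios conditional exact binomial intervals and shares Clopper-Pearson intervals, all at 95% (Python 3.11.15, scipy 1.17.1). A level of 0 is given with the limit of 3 counts. Scaling factors came from edgeR 4.0.16. The fitting code was tested on simulated data. Alternatives covered scaling, cell filters, raw molecules, marker definitions and thinning depth. Of pathway genes, at most 4 called in each direction with the bound farthest from 1 were to be named, and others named were chosen after their values were seen. Likeness names 3 genes per member, of which 1 for Id2 is not reported here. Gene positions are those of GENCODE for GRCm38. Protein sequences were not used here.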

Additional observations from a re-analysis of the deposited data

Results flagged for a closer look

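Id3 in Igfbp5-marked cells went opposite ways in the tissues when these cells were set against the other cells of the same library. In the tail, Id3 was at 359 CPM in Igfbp5-marked and 138 in the other cells, a ratio of 2.60 (2.18 to 3.11). In the brain it was at 98.0 and 144, a ratio of 0.679 (0.495 to 0.911). The difference between the tissues was not tested, since each has 1 library. Of the brain Igfbp5-marked cells, 28.4% were also marked by Dlx1 and 41.3% by Slc1a3. Brain cells marked by Igfbp5 and no other of the 7 markers held 7 Id3 molecules (63.2 CPM), and tail ones 283 (335 CPM).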

How the results depend on the processing

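No paired analysis was possible because each tissue had 1 library and the labels give no replicate numbers. Of 63 tail over brain ratios of the 7 genes under other settings, 44 stayed within the counting interval of the reported value and 19 moved outside it, and none changed direction. Id1, Id2 and Bmpr1b kept their calls under every setting that gives an interval. TMM scaling gave tail over brain ratios of 2.80 for Id1, 0.241 for Id2, 1.46 for Id3, 1.12 for Id4, 0.565 for Bmpr1a and 0.673 for Bmpr2. Median-ratio scaling gave 2.84, 0.244, 1.48, 1.14, 0.572 and 0.681 in the same order. With more than 500 genes per cell the ratios were 0.380 for Id2, 2.13 for Id3 and 1.14 for Id4, and with under 20% mitochondrial molecules 0.351 for Id2 and 1.30 for Id4. The Id4 ratio was 1.83 without cells of other types and 1.83 as a mean over cells. The cause of these moves was not tested.

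Shares of cells moved with the depth kept, as fewer molecules per cell must give fewer cells with a gene. Without thinning, the tail shares were 9.78% for Id1, 22.7% for Id2, 22.3% for Id3, 44.0% for Id4, 15.1% for Bmpr1a, 0.662% for Bmpr1b and 8.86% for Bmpr2, and the brain shares in the same order 1.74%, 39.2%, 9.01%, 21.6%, 12.1%, 4.62% and 6.01%. Thinned to 800 molecules, which kept 1645 tail and 3018 brain cells, the tail shares were 5.96% for Id1, 16.7% for Id2, 16.8% for Id3, 33.8% for Id4, 8.75% for Bmpr1a and 5.17% for Bmpr2. The brain shares at that depth were 1.99% for Id1, 40.7% for Id2, 9.48% for Id3, 25.7% for Id4, 12.2% for Bmpr1a, 4.27% for Bmpr1b and 5.96% for Bmpr2. Another random draw gave 1.20% for Id1 in the brain. The expected share over all draws, added after the data were seen, moved no value outside its interval.

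With a minimum of 200 molecules, 8 pathway genes and 1573 of all genes were called, against 16 and 2523, since fewer genes were tested. With a pseudocount of 5 in place of 20, 12 of the 21 genes most like the members were the same. Of 280 levels in marked sets 31 moved. Of 82 tail over brain ratios within sets 11 moved and 4 crossed 1, each of the 4 where a cell could carry only 1 of the 7 markers. These were Id1 in Slc1a3-marked cells at 0 (0 molecules in 14 tail cells, upper bound 7.83), Id4 in Slc1a3-marked cells at 0.0712, Id4 in Top2a-marked cells at 0.566 (0.235 to 1.32) and Id2 in Igfbp5-marked cells at 1.48 (0.934 to 2.46). The 0 of Id1, with its upper bound of 7.83, measures no direction. The intervals of Id4 in Top2a-marked and of Id2 in Igfbp5-marked cells include 1, so those ratios measure none either. The rule of only 1 marker left 29 tail and 43 brain Top2a-marked cells.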

Other observations

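Cells with none of the 7 markers, 481 in the tail and 1974 in the brain, held values outside the comparisons above. In the brain these cells were at 696 CPM for Id2 (650 to 744), 241 for Id4 (215 to 270) and 105 for Id3 (88.0 to 125). In the tail they were at 282 for Id2 (243 to 325), 213 for Id4 (180 to 251) and 29.9 for Id1 (18.2 to 46.1). The Id2 level of unmarked brain cells thus lay between those of Dlx1-marked cells, at 91.8, and Slc1a3-marked cells, at 1091. Unmarked brain cells had a median of 547 molecules, against 744 in Slc1a3-marked and 760 in Dlx1-marked cells. A cell with only 1 molecule of a marker counts as unmarked, and the part of depth in this order was not tested.

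The 36 brain Col1a1-marked cells, 75.0% of them also marked by Slc1a3, held 35 Id2 molecules (1033 CPM) and 15 Id4 molecules (443 CPM). The 177 tail Col1a1-marked cells were at 322 and 99.1.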
